A study of Homo sapiens with 4 samples.

Results

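Gene expression was compared between ALDH-positive and ALDH-negative cells of a breast cancer line that had not received the inducer, with 1 array on each side. The difference of each gene is the log2 level in the ALDH-positive control array minus that in the ALDH-negative control array, so that 1 stands for 2-fold. A gene entered the comparison if either array gave it a log2 level of 6 or more, which held for 12052 genes out of the 19775 that the array measures singly (a probe set is the group of short probes read as 1 value). A level near or under 6 is close to the background of these arrays. All results below are differences in RNA level of these 2 samples, and each group had 1 array.

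The cells were SUM159, an established human breast cancer line without hormone receptors and of mesenchymal character. All 4 groups carried a lentiviral pTRIPZ construct for inducible expression of the microRNA miR-100, the control groups included. Cells were sorted by flow cytometry into ALDH+ and ALDH- fractions and then kept in suspension, with doxycycline (DOX) to switch the construct on or without it. The labels give 10 h of culture in the sample source names and the protocol but 13 h in the descriptions, which also name doxorubicin, another drug. The groups are thus ALDH-positive control, ALDH-negative control, ALDH-positive DOX and ALDH-negative DOX, each with 1 array. The series' stated aim is to find what miR-100 acts on in stem-like and other cells of the line. The comparison of the 2 control groups shows how the fractions differed without the inducer, after the same culture. Nothing in the labels says whether the fractions came from separate cultures or sorts, and no group had a repeat array. The p-values below thus rest on a spread that may be technical and includes any response to DOX that differs between the fractions.

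Aldehyde dehydrogenases oxidise aldehydes, among them retinal to retinoic acid, and cells with high activity of these enzymes are sorted from breast cancers to enrich cells that can start tumours. ATF4 is a transcription factor whose mRNA is translated when cells lack amino acids or meet other stress, and its targets supply amino acids, charge transfer RNAs and, under lasting stress, promote death. Before a cell copies its DNA, origins are loaded with the MCM helicase, and E2F factors drive the genes needed for this step. Cholesterol synthesis is driven by SREBP factors when sterols run low, while sterol export is driven by LXR receptors when oxysterols are plentiful.

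The sort itself was checked on ALDH1A1, an enzyme that contributes to the sorted activity. Its log2 level was 11.77 in the control cells sorted as positive and 10.72 in those sorted as negative, and 10.66 and 10.86 in the DOX cells. The control pair thus differed by 1.05 in the direction of the label, and the DOX pair by -0.20, so that the 2 pairs did not share a direction. Of the 14 ALDH genes at level, ALDH6A1 (1.93) and ALDH3B1 (1.63) were also 2-fold higher and none was 2-fold lower. ALDH6A1, of valine breakdown, was higher on all 4 of its probe sets at level, which are of kinds that can bind several transcripts. The RNA level of ALDH1A3, another retinal-oxidising member, was 6.48 against 5.86.

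The 4 arrays had medians between 6.18 and 6.22. Over all probe sets the 2 ALDH-negative arrays correlated at 0.996, the 2 control arrays at 0.981 and the 2 ALDH-positive arrays at 0.983, while the ALDH-positive DOX array correlated with the ALDH-negative arrays at 0.970 and 0.971 and so stood furthest apart. In the control pair the probe sets at the 3′ ends of ACTB and GAPDH differed by -0.06 and 0.04 and those at their 5′ ends by 0.53 and 0.35. The 18S ribosomal RNA probe sets differed by 1.06 (3′), 0.08 (middle) and 0.34 (5′). The part of RNA quality in the results was not tested.

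The fractions differed by 2-fold or more in 734 genes that were higher (6.09% of all) and 530 that were lower (4.40%) in ALDH-positive cells. Differences of 4-fold or more were found for 133 and 77 genes, and of 8-fold or more for 24 and 18. The median difference of all 12052 genes was -0.0047 and the median size 0.32, and 80% of genes lay between -0.66 and 0.74. These calls are by size alone, with no p-value. For 195 of the genes called higher and 107 of those called lower, the lower of the 2 levels was under 6, so that the true fold may be larger or smaller than printed. Where a 2-fold difference named below falls within 2-fold once levels under 6 are set to 6, that value follows it as "floored" or the limit is stated in words. Among the called genes, 552 had several probe sets at level, and in 500 of these the probe sets all pointed one way.

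**Figure D1:**
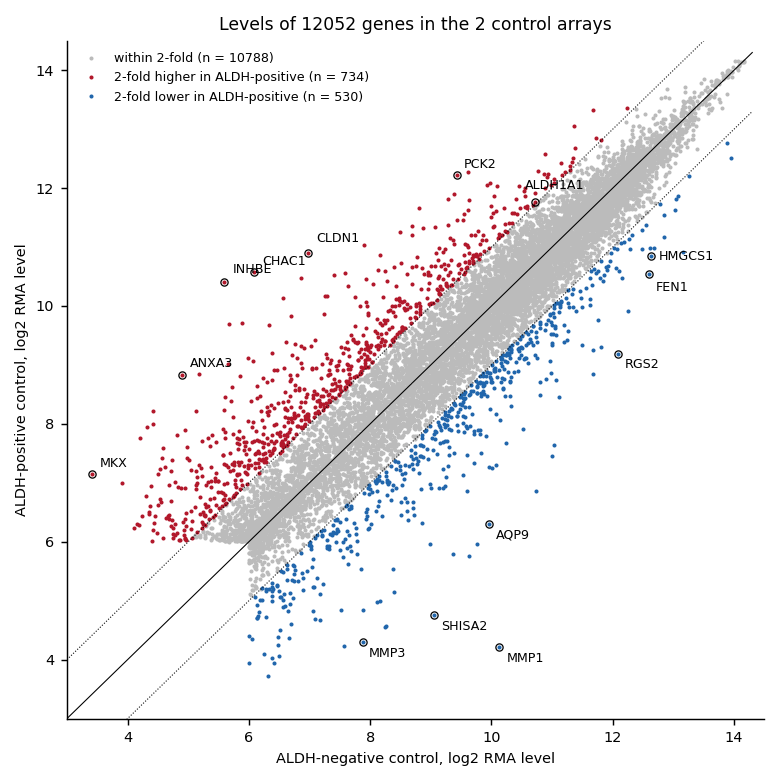
Log2 RMA level of each of 12052 genes in the ALDH-negative control array (x axis) and the ALDH-positive control array (y axis). Red points are the 734 genes 2-fold higher and blue points the 530 genes 2-fold lower in ALDH-positive cells, the solid line marks equality and the dotted lines 2-fold. INHBE and CHAC1 stand far above the line and MMP1 and SHISA2 far below it.

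The DOX arrays gave the same contrast with no array in common. Of the 734 genes higher in the control pair, 709 had the same sign and 579 were 2-fold higher in the DOX pair (ALDH-positive DOX minus ALDH-negative DOX). Of the 530 lower genes, 501 had the same sign and 263 were 2-fold lower. Over the genes outside the calls 70.7% had the same sign. The share of all genes 2-fold apart in the DOX pair is not given here, so that the 2-fold counts have no background beside them. The differences were tested with a limma fit to the 4 arrays, in which the effects of fraction and inducer add up. It leaves 1 residual degree of freedom, in which a response to DOX that differs between the fractions counts as error. By a Benjamini-Hochberg adjusted p under 0.05 in that model, 1672 of 12365 genes (13.5%) passed as higher in the ALDH-positive fraction and 1184 (9.58%) as lower. The control arrays are part of this fit, so that for genes chosen by their control difference a pass is a description and not independent of the choice. Fitted without the ALDH-positive DOX array, with the DOX term dropped, the model called 2909 genes higher and 3064 lower, since the spread then came from the 2 ALDH-negative arrays alone. That fit is given only to show what leaving the array out does to the counts. Below, "passed the model" means the fit to the 4 arrays.

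Among the genes furthest higher were secreted proteins, surface proteins and genes of the stress and interferon programmes. INHBE, an activin subunit, lay at 10.40 and 10.37 in the ALDH-positive control and DOX arrays and at 5.58 and 5.28 in the ALDH-negative ones, which put the fractions far apart in both pairs. Its control difference was 4.82, with 4.95 ± 0.28 (SE, limma adjusted p = 1.35e-06) in the model, and the difference was 4.40 with levels under 6 set to 6. CHAC1, which breaks down glutathione, was at 10.58 and 9.66 against 6.08 and 5.44, a control difference of 4.50 that the same floor leaves as it is. The tight junction protein CLDN1 was at 10.90 and 9.91 against 6.97 and 6.97, and its other probe set differed by 4.17. TSLP, an epithelial cytokine that acts on dendritic cells, differed by 3.58 from a level under 6 in ALDH-negative cells. FUT1, which builds the H blood group antigen, was at 10.48 against 6.86, and VSIR, an immune checkpoint protein of the B7 family, at 9.68 against 6.34.

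Other genes of this end had known roles in the vessel wall, the matrix and development. KDR, the main VEGF receptor, differed by 3.08 (8.21 against 5.13), the adhesion molecule VCAM1 by 2.95 and CCBE1, needed for lymphatic vessels, by 3.0. The matrix proteins ECM2 (4.01) and CCDC80 (2.89), the homeobox factor MKX (3.73), which acts in tendon, and ESRP1 (3.09, floored 0.99), an epithelial splicing regulator, were higher as well. The monooxygenase CYP4B1 was at 11.03 against 7.89, and the testis-enriched chaperone CLGN at 10.52 against 7.41. The long noncoding RNAs LINC01133, CRIM1-DT and DDX59-AS1 differed by 3.80, 3.37 and 3.01. All 30 genes furthest up had the same sign and were 2-fold higher in the DOX pair, and in 19 of them the ALDH-negative control level was under 6.

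**Figure D2:**
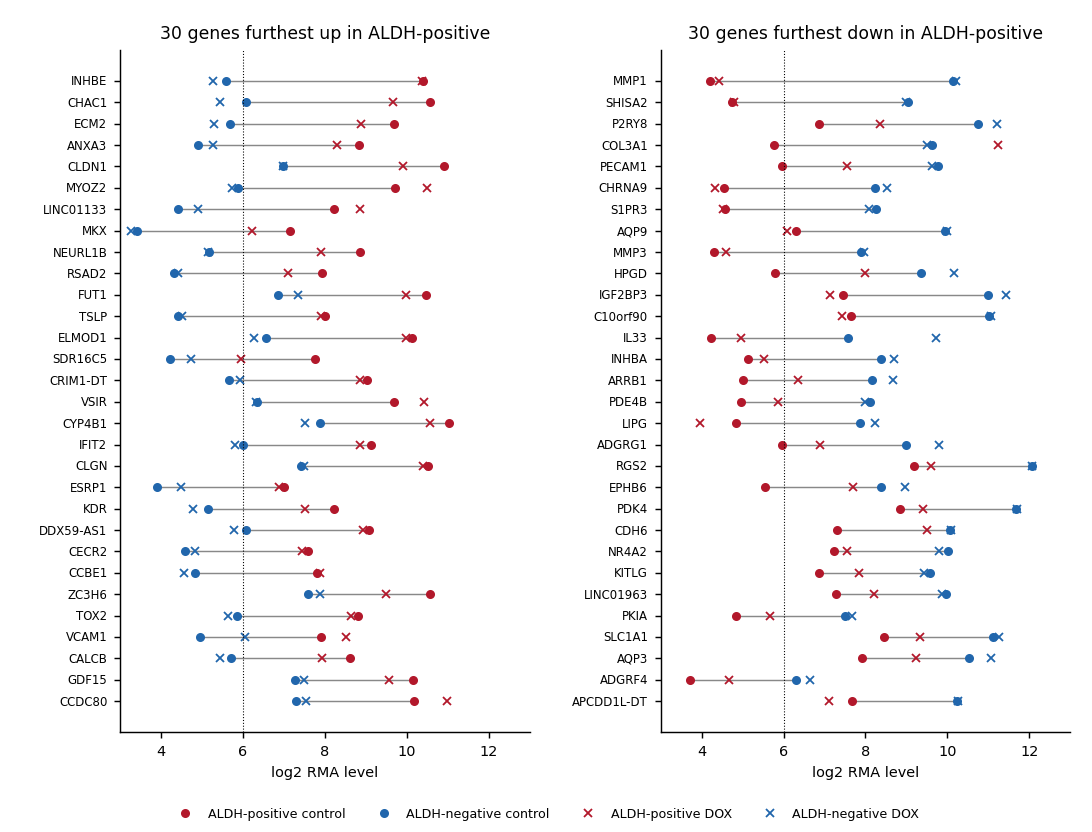
Log2 RMA levels (x axis) of the 30 genes furthest up (left) and the 30 furthest down (right) in the ALDH-positive control array. Filled circles are control and crosses DOX arrays, red is ALDH-positive and blue ALDH-negative, grey lines join the 2 control arrays, and the dotted line marks the level of 6. In the DOX arrays all 30 on the left and 29 on the right keep their side, the exception being COL3A1.

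The genes furthest lower encode proteins of several kinds, among them matrix proteases and cell surface receptors. MMP1, the interstitial collagenase, lay at 4.21 and 4.43 in the ALDH-positive control and DOX arrays and at 10.13 and 10.20 in the ALDH-negative ones. It was at background in both ALDH-positive arrays and well above it in both others, with -5.84 ± 0.28 (SE, limma adjusted p = 4.05e-07) in the model. SHISA2, which holds back Wnt and FGF receptors, showed the same pattern with 4.75 and 4.79 against 9.05 and 8.99. The cell adhesion molecule PECAM1 was at 5.96 and 7.56 against 9.77 and 9.62, lower on all 5 of its probe sets. The G-protein-coupled receptors P2RY8 (-3.87), S1PR3 (-3.69), ADGRG1 (-3.01) and ADGRF4 (-2.59, floored -0.31) and the acetylcholine receptor subunit CHRNA9 (-3.69) were lower. So were the water and glycerol channels AQP9 (-3.65) and AQP3 (-2.61).

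The 30 genes also held PDE4B, RGS2, INHBA and IL33. PDE4B, which breaks down cyclic AMP, differed by -3.13, PKIA, an inhibitor of protein kinase A, by -2.67, RGS2, which quenches G proteins, by -2.89 and the arrestin ARRB1 by -3.16. NR4A2, a nuclear receptor induced by cyclic AMP, was at 7.24 against 10.01 and lower on all 3 probe sets. INHBA, another activin subunit, was at 5.14 and 5.53 against 8.39 and 8.69, the reverse of INHBE. The alarmin cytokine IL33 was at 4.24 and 4.96 against 7.57 and 9.71, the reverse of TSLP. The stem cell factor KITLG (-2.72), the endothelial lipase LIPG (-3.05) and PDK4 (-2.82), which holds back pyruvate oxidation, were also among the 30. For COL3A1 (-3.87) and IGF2BP3 (-3.54) the probe sets at level can all bind several transcripts, and COL3A1 lay on the other side in the DOX pair (1.73). The other 29 kept their sign, 28 of them at 2-fold, and 17 of the 30 had an ALDH-positive level under 6.

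The ATF4 programme was higher in ALDH-positive cells in most of its arms. Of 23 listed genes at level, 16 were 2-fold higher and none 2-fold lower, with a median of 2.14, and 17 passed the model as higher and none as lower. Of all genes, 6.09% were 2-fold higher and 4.40% lower, and 13.5% and 9.58% passed the model as higher and lower. This list and those below were chosen with earlier results of these data known, so that their counts are descriptions and not independent of the values. Without probe sets that can bind several transcripts the median of the remaining 17 was 1.56. Most members among the transcription factors and brakes were higher, with 7 of 10 at 2-fold. ATF4 itself lay at 13.22 and 13.21 in the ALDH-positive control and DOX arrays and 12.40 and 12.36 in the ALDH-negative ones, a small and even gap (0.84 ± 0.094 (SE, limma adjusted p = 8.25e-05)). Its partner CEBPG differed by 1.41, the death-promoting factor DDIT3 by 2.49, the brake TRIB3 by 2.52 and the phosphatase subunit PPP1R15A, which restarts translation, by 1.82. ATF3, an early stress factor, was at 10.07 in the ALDH-positive control array against 7.93, but the gap was 0.68 in the DOX pair. ATF5 (-0.89) lay lower, and its 4 probe sets at level did not all go one way.

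The effectors of the programme were higher together. All 8 redox, energy and survival effectors lay above 0, 6 of them at 2-fold, and 7 passed the model as higher. PCK2, a mitochondrial enzyme that feeds carbon into gluconeogenesis, was at 12.22 and 12.50 against 9.43 and 9.68 (2.81 ± 0.19 (SE, limma adjusted p = 4.35e-06)). The transsulfuration enzymes CBS and CTH, which make cysteine, differed by 2.35 and 2.44, SESN2, which damps mTOR signalling, by 2.39, and NIBAN1 by 2.76. Of the secreted proteins, GDF15, a stress hormone, was at 10.16 against 7.26, although its probe set that binds a single transcript differed by 1.26, and STC2 was at 11.58 against 10.02. VEGFA differed by 0.47 and did not pass 2-fold.

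The composite element bound by C/EBP and ATF factors was looked for as the letters TGATGNAA on either strand in the 250 bases before each RefSeq transcript start (GRCh38.p14), where 9853 of the 12052 genes had a promoter in the table. It was held by 4 of 19 ATF4 programme genes and 3 of 14 cytosolic tRNA synthetases, 1 of 13 mitochondrial synthetases and 0 of 8 serine, glycine and folate enzymes, against 2.42% of the genes compared and 3.89% of all genes in the table. The members with the largest differences that hold it are shown as stretches of 80 bases, 5′ to 3′ on the gene's strand, with the match in capitals.
CHAC1: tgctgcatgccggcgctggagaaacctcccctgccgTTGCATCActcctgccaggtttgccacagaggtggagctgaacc
ATF3: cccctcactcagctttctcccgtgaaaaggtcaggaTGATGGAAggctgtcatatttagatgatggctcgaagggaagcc
AARS1: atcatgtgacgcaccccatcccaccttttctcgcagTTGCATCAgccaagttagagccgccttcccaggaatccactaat
CEBPG: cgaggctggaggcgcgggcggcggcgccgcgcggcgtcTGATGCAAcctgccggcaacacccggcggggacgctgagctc
These lie at chr15:40953226-40953305 (plus strand), chr1:212565180-212565259 (plus), chr16:70289650-70289729 (minus) and chr19:33374033-33374112 (plus). CHAC1 and AARS1 hold the same 8 letters on the opposite strand. A match describes these letters and is not evidence of binding.

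The aminoacyl-tRNA synthetases were led by cytosolic members. Of 17 cytosolic aminoacyl-tRNA synthetases, which charge transfer RNAs for the ribosome, 13 lay above 0 with a median of 0.33, and 9 passed the model as higher and 1 as lower. AARS1 was at 12.58 and 12.66 against 10.88 and 11, CARS1 differed by 1.45 and SARS1 by 1.29, while HARS1, for histidine, was the one that passed as lower (-0.82). The cytosolic median was 0.42 in the DOX pair, and 0.11 in the control pair over the 12 members left without probe sets of several transcripts. Of their 15 mitochondrial counterparts, 12 lay below 0 with a median of -0.21, but the median was 0.035 in the DOX pair. LARS2 (-1.02) was the only one of them past 2-fold, and 1 of the 15 passed the model, as lower.

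Of 5 enzymes of serine and glycine, 2 were 2-fold higher and 1 lower, with a median of 0.20. PHGDH, the first step of serine synthesis, was at 11.15 and 11.37 against 9.31 and 9.33, PSAT1, the next step, differed by 1.08, and asparagine synthetase ASNS by 1.69 from a level of 11.37. PRODH, which degrades proline, was at 6.62 against 4.50 (2.12, floored 0.62). ASNS and PRODH were the only 2 of 15 other amino acid enzymes past 2-fold. The median of these 15 was 0.15, or 0.04 over the 10 left without probe sets of several transcripts. The 6 enzymes of folate carbon units had a median of -0.31, and MTHFD2, which acts in mitochondria, was at 0.57. SHMT1, the cytosolic serine to glycine enzyme, was lower at -1.02.

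Amino acid carriers were also counted by the groups of the list, which are not strict classes of transport mode. Of 11 genes listed with the exchangers, 9 lay above 0 and 3 were 2-fold higher. These were SLC1A4 (2.17), SLC43A1 (1.21) and SLC1A5 (1.07), which move small neutral, branched-chain and glutamine-type amino acids. Of 11 genes listed as driven by sodium or protons, 10 lay below 0. SLC1A1 (-2.67), a glutamate carrier, SLC38A4 (-1.54) and SLC6A15 (-1.46, floored -0.52) were 2-fold lower. In the model 5 of the exchanger group passed as higher and none as lower, and 5 of the other group passed as lower and none as higher. SLC7A11, the cystine importer, differed by 0.12.

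The unfolded protein response of the endoplasmic reticulum did not show the size of the ATF4 programme. Its 24 members had a median of 0.12, with HERPUD1 (1.00) the only one at 2-fold. The sensors and regulators were the higher arm, with ERN1 at 0.95, XBP1 at 0.82 and ATF6 at 0.59. The 14 chaperones had a median of 0.03, and HSPA5, the main chaperone of this compartment, differed by 0.20. In the model 5 of the 24 passed as higher and 2 as lower.

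**Figure D3:**
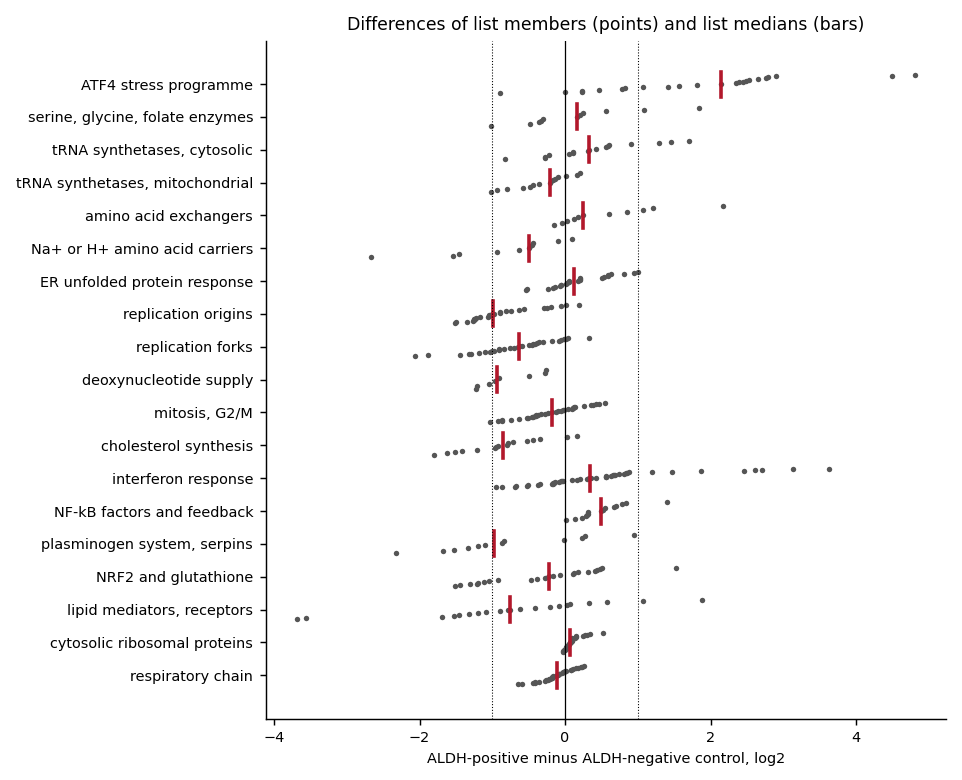
Difference between the ALDH-positive and ALDH-negative control arrays (x axis, log2) for the members of 19 gene groups (rows); each point is a gene and the red bar the group's median. Dotted lines mark 2-fold. The ATF4 programme (median 2.14) lies to the right, and replication origins (-0.98), deoxynucleotide genes (-0.93) and cholesterol synthesis (-0.86) to the left. The row labelled deoxynucleotide supply also counts SAMHD1, which degrades deoxynucleotides, so that it is not a measure of supply.

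Genes for starting DNA replication were lower in ALDH-positive cells, most evenly in the helicase. All 12 helicase genes lay below 0, with a median of -1.04, 7 were 2-fold lower and 11 passed the model as lower. MCM10 was at 9.68 and 8.96 in the ALDH-positive control and DOX arrays and 11.19 and 10.95 in the ALDH-negative ones. GINS1 and GINS2, parts of the GINS complex, differed by -1.24 and -1.25, CDC45 by -1.05 and the core subunits MCM2 to MCM7 by between -0.89 and -1.26. Within the loading machinery CDC6 (-1.22) and ORC1 (-1.16) were lower, while ORC2, ORC3, ORC4 and ORC5 lay between -0.19 and 0.19. CDT1 was at -1.5 on its brighter probe set and at 0.43 on the other, so that its direction is uncertain. Of all 26 origin genes, 12 were 2-fold lower and none higher, and 18 passed the model as lower and none as higher.

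Fork genes followed with a smaller median. Of 32 genes, 29 lay below 0 with a median of -0.64, 9 were 2-fold lower and 16 passed the model, all lower. The flap nuclease FEN1 was at 10.53 and 10.90 against 12.59 and 12.47, lower on both of its probe sets (-1.82 ± 0.17 (SE, limma adjusted p = 2.08e-05)). CLSPN, which couples forks to the checkpoint, differed by -1.88, the histone chaperones ASF1B and CHAF1A by -1.45 and -1.18, and the polymerase subunit POLE2 by -1.31. PRIM1, of the primase, lay at 0.33, and PCNA, the sliding clamp, at -0.84.

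**Figure D4:**
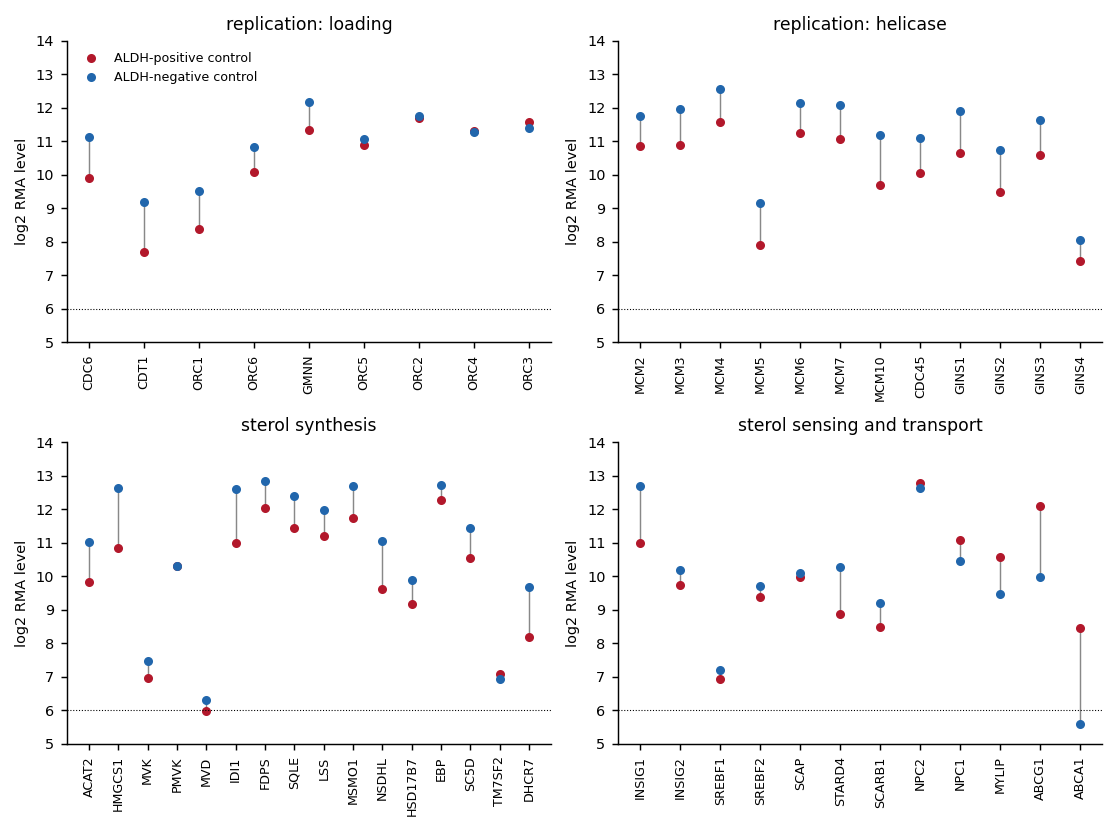
Log2 RMA levels (y axis) of genes of origin loading, the replicative helicase, sterol synthesis, and sterol sensing and transport in the ALDH-positive (red) and ALDH-negative (blue) control arrays; lines join the 2 arrays of a gene and the dotted line marks the level of 6. The ALDH-positive point is the lower one for all 12 helicase genes, while ABCA1, ABCG1 and MYLIP in the last panel have it on top.

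RNA levels of deoxynucleotide genes were lower, while those of purine and pyrimidine synthesis were not shifted as a group. All 8 deoxynucleotide genes lay below 0 with a median of -0.93, and all 8 passed the model as lower. TK1, thymidine kinase, was at 7.99 and 8.07 against 9.21 and 9.06, and RRM2, the regulated subunit of ribonucleotide reductase, differed by -0.96. TYMS, thymidylate synthase, differed by -1.05, although 1 of its 3 probe sets went the other way. The group also counts SAMHD1 (-1.22), which degrades deoxynucleotides, so that it is not a measure of their supply. The 12 genes of purine and pyrimidine synthesis had a median of -0.08, and none reached 2-fold.

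E2F sites were looked for as TTTNNCGC on either strand in the same 250 bases. These letters were held by 9 of 22 origin genes and 10 of 27 fork genes, against 11.2% of the genes compared and 7.15% of all genes in the table. POLE2, GINS2 and RFC3, each 2-fold lower, are shown, again with the match in capitals.
POLE2: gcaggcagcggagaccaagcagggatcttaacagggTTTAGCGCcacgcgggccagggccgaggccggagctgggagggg
GINS2: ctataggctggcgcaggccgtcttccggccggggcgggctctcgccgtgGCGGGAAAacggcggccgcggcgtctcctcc
RFC3: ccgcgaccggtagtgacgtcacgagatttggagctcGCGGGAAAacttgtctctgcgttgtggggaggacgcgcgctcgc
They lie at chr14:49688252-49688331 (minus strand), chr16:85688955-85689034 (minus) and chr13:33818058-33818137 (plus). The matched letters begin 81, 31 and 55 bases before the transcript starts of POLE2, GINS2 and RFC3.

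Regulators of the step into S phase were lower in part. Of 24 genes, 8 were 2-fold lower and none higher, with a median of -0.54, and 9 passed the model as lower. The cyclin CCNE2 was at 9.06 and 8.36 against 10.97 and 11.07, CCNE1 differed by -1.28, the phosphatase CDC25A by -1.29, and E2F1, E2F2 and E2F8 by -1.09, -1.02 and -1.27. The D cyclins CCND1 (-0.42), CCND2 (0.25) and CCND3 (-0.85) stayed within 2-fold, as did the inhibitors CDKN1A (-0.38) and CDKN1B (0.075). Genes of mitosis were closer to 0, with a median of -0.19 over 35 genes, AURKB (-1.03) alone past 2-fold, and 7 passing the model as lower. Among them CDK1 lay at -0.87, MKI67 at -0.19, TOP2A at 0.11, CCNB2 at 0.43 and CENPF at 0.54.

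DNA repair genes that act at forks and core histones were lower too. All 11 recombination genes lay below 0 with a median of -0.73, and RAD54L (-1.36), POLQ (-1.24), EXO1 (-1.20) and RAD54B (-1.01) were 2-fold lower. Of the 27 repair and checkpoint genes together, 10 passed the model as lower and 2 as higher. Of 14 core histone genes at level, 6 were 2-fold lower, among them H2BC12 at 9.57 against 11.27 and H4C8 at 3.94 against 6.01 (-2.07, floored -0.009), and 4 passed the model. Histone genes are close copies of each other, so that probe sets may not separate them, and in the DOX pair H2AC6 lay at -0.12 after -1.69 in the control pair.

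Cholesterol synthesis was lower, and the sterol exporters ABCA1 and ABCG1 were higher. Of 16 enzymes at level, 14 lay below 0 with a median of -0.86, and 5 were 2-fold lower. In the model 11 passed as lower and none as higher. HMGCS1, which makes the precursor of mevalonate, was at 10.84 and 10.23 against 12.64 and 12.57 (-2.07 ± 0.17 (SE, limma adjusted p = 1.23e-05)). DHCR7 (-1.51) and NSDHL (-1.42), of the last steps, and ACAT2 (-1.21), of the first, were lower on their probe sets at level. IDI1 lay at -1.63 on its 2 bright probe sets and at 0.21 and 0.25 on 2 dim ones, of which the first is its only probe set of the kind that binds a single transcript.

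Of 12 genes that sense or move sterols, 3 were 2-fold higher and 2 lower, with a median of -0.19. The 5 sensing genes had a median of -0.32 in the control and 0.18 in the DOX pair. The 7 genes of uptake and export had a control median of 0.62, or 0.18 without probe sets of several transcripts. INSIG1, which retains SREBP and is itself an SREBP target, was at 10.99 and 11.09 against 12.69 and 12.51, and the sterol carrier STARD4 differed by -1.40. In the opposite direction ABCA1, the cholesterol exporter, was at 8.45 and 8.89 against 5.60 and 6.01 (2.86 ± 0.28 (SE, limma adjusted p = 3.04e-05)). ABCG1, another exporter, differed by 2.12 and MYLIP, which degrades the LDL receptor, by 1.09. MYLIP was at 0.18 on its brightest probe set for a single transcript. SREBF1 and SREBF2, which encode the SREBP factors, differed by -0.27 and -0.32. The 12 fatty acid synthesis genes had a median of -0.38 and none reached 2-fold, with FASN at -0.95 and SCD at -0.37. Without probe sets of several transcripts, the median of the remaining 7 was 0.07. The letters of a sterol regulatory element, TCACNCCAC, were in none of the 14 cholesterol synthesis promoters in the table, against 1.18% of the genes compared, which says only that this spelling is not in these windows.

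A part of the interferon response was higher, led by antiviral effectors. Of 44 genes at level, 8 were 2-fold higher and none 2-fold lower, with a median of 0.35. In the model 15 passed as higher and 4 as lower. RSAD2, an antiviral enzyme, was at 7.94 and 7.11 against 4.31 and 4.41, with both ALDH-negative arrays at background. IFIT2 differed by 3.13, IFIT1 by 2.71, the ISG15 ligase HERC5 by 2.62 and OASL by 2.46. The chemokine CCL5 was at 8.35 and 8.03 against 6.48 and 6.08, and IRF1, a factor of the response, differed by 1.20. Other effectors did not follow: ISG15 lay at 0.30, MX1 at 0.63 and IFIT3 at 0.17. OAS3 (-0.95), USP18 (-0.87) and IFI44 (-0.69) passed the model as lower. Without probe sets of several transcripts the median of the remaining 35 genes was 0.17. MHC class I presentation had a median of 0.23 with none of 14 at 2-fold, and 5 passed the model as higher, among them HLA-E (0.68).

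The letters GAAANNGAA of the interferon-stimulated response element were found on either strand in 22 of 31 promoters of the list, of which 20 were among the 24 effectors, against 7.49% of the genes compared and 8.41% of all genes in the table. The members with the largest differences that hold them are shown.
RSAD2: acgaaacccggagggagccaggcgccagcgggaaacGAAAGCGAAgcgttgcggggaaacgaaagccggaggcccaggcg
IFIT1: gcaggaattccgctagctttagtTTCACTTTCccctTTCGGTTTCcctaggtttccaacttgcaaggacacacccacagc
HERC5: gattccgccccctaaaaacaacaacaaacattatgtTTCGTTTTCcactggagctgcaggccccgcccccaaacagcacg
They lie at chr2:6865770-6865849, chr10:89392485-89392564 and chr4:88457010-88457089, all on the plus strand. IFIT1 holds the letters at 2 places in this stretch, both on the opposite strand.

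Among inflammatory genes the NF-kB factors lay slightly higher together and the cytokines split. All 15 NF-kB factors and feedback genes lay above 0, with a median of 0.50, and ICAM1 (1.41), an adhesion molecule, was the only one at 2-fold. The model passed 4 as higher and none as lower. Of 23 cytokine and chemokine genes and their receptors, 5 were 2-fold higher and 2 lower, with a median of 0.015, and 4 passed as higher and 8 as lower. Apart from TSLP and IL33, IL18 was at 11.06 and 11.39 against 9.56 and 9.46 and LIF differed by 1.59. IL1A and IL6 were higher in the control pair (2.70 and 1.53) but not in the DOX pair (-0.34 and -0.12), since their levels in the ALDH-positive DOX array were 8.56 and 7.01 against 10.86 and 8.99 in the control. CSF3, the granulocyte factor, was lower at -1.63, and CXCL8 lay at 0.015.

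The plasminogen system and the enzymes and receptors of lipid mediators were lower in ALDH-positive cells. Of 12 plasminogen, coagulation and serpin genes, 6 were 2-fold lower and none higher, with a median of -0.98, and 8 passed the model as lower and 1 as higher. Thrombomodulin, THBD, was at 9.92 and 10.22 against 12.24 and 12.20 (-2.15 ± 0.18 (SE, limma adjusted p = 1.46e-05)). The urokinase activator PLAU (-1.52), its receptor PLAUR (-1.34), tissue factor F3 (-1.10), the protease inhibitor TFPI2 (-1.68) and the serpin SERPINB5 (-1.20) were lower, while SERPINB1 lay at 0.95. Besides MMP1 and MMP3 (-3.60), the proteases ADAM12 (-1.82), ADAMTS12 (-1.55) and ADAMTS6 (-1.27) were 2-fold lower, but MMP2 lay at -0.11 and the 24 matrix proteases and inhibitors had a median of -0.03.

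Of 21 lipid mediator genes, 8 were 2-fold lower and 2 higher, with a median of -0.76, and 10 passed the model as lower and 3 as higher. Sphingosine phosphate receptors S1PR3 and S1PR1 (-1.46, floored -0.57) and lysophosphatidic acid receptors LPAR1 (-1.20) and LPAR6 (-1.53) were lower. On the prostanoid side the cyclooxygenases PTGS1 (-1.69) and PTGS2 (-1.31), the receptor PTGFR (-1.08) and HPGD, which inactivates prostaglandins, were lower. HPGD was at 5.80 and 7.98 against 9.36 and 10.16, on 4 probe sets that all can bind several transcripts. The prostaglandin E receptor PTGER4 was higher, at 9.85 against 7.96.

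Some targets of NRF2, the factor of the oxidant response, were lower. Of 24 genes, 7 were 2-fold lower and 1 higher, with a median of -0.23, and 9 passed the model as lower and 2 as higher. GCLM, of glutathione synthesis, was at 9.99 and 9.13 against 11.50 and 11.36, NQO1, a quinone reductase, differed by -1.31 and PGD, of the pentose phosphate pathway, by -1.22. The aldo-keto reductases AKR1C1 (-1.44), AKR1C2 (-1.11) and AKR1C3 (-1.20) are near-identical copies that probe sets may not separate, and they lie side by side on chromosome 10 with AKR1E2 (-1.74) and TUBAL3 (-1.76), both also lower. A probe set of AKR1C1 of the kind for a single transcript was at 7.08 and 6.89 in the ALDH-positive control and DOX arrays and 11.56 and 11.16 in the ALDH-negative ones. HMOX1, heme oxygenase, differed by -1.05 in the control and -3.81 in the DOX pair. Of the glutathione peroxidases at level, GPX1, GPX4 and GPX8 lay at 0.31, 0.44 and 0.49 and GPX3 at 1.53, floored 0.31, and TXNRD1 lay at 0.18. The 22 cytosolic and mitochondrial chaperones had a median of -0.41, HSPH1 (-1.20) alone past 2-fold, and 9 passed the model as lower and none as higher.

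Genes of epithelial and breast lineage identity differed in single members. Of 31 epithelial junction genes and regulators with a probe set, 10 were at level, 3 were 2-fold higher (CLDN1, ESRP1 and occludin OCLN, 1.52) and none lower, while CDH1 and EPCAM stayed under a level of 6 in both arrays, as did the hormone receptors ESR1 and PGR. GATA3, a luminal factor, was at 9.42 and 9.04 against 7.10 and 7.21, the keratins KRT7 and KRT5 differed by 1.36 and 1.02, floored 0.78, and the basal integrin ITGB4 by 2.26. SFN, a 14-3-3 protein of epithelia, was lower at -1.51. Of 26 mesenchymal genes, MKX and AXL (1.06) were 2-fold higher and CDH6 (-2.77) and PRRX1 (-2.40) lower, and VIM lay at 0.11, ZEB1 at 0.36 and CDH2 at 0.26. CDH6 was lower on all 6 of its probe sets at level in the control pair but at -0.59 in the DOX pair.

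Of 14 genes tied to breast stem-like cells, the inhibitors of differentiation ID1 (2.52) and ID3 (1.46) and the factor KLF4 (1.12) were 2-fold higher, and the exporter ABCG2 (-1.30) and SOX9 (-1.05) lower. ID1 lay at 11.90 and 11.02 against 9.37 and 9.50. CD44, the surface marker used together with ALDH, lay at -0.32, SOX2 at 0.24 and ITGA6 at -0.17, and the list's median was -0.15. PROM1 did not reach a level of 6.

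Collagens had a median near 0 with large single differences. The 29 collagen and collagen-processing genes had a median of 0.0032, with COL12A1 (1.66), LOX (1.08) and LOXL2 (1.07) 2-fold higher and COL3A1 and P4HA3 (-1.28, floored -0.74) lower. Of the glycoproteins, ECM2, THBS3 (1.86) and EFEMP1 (1.10) were higher and the proteoglycan VCAN (-2.15), CCN3 (-2.40) and NID2 (-1.08, floored -0.29) lower. VCAN was at 9.34 and 9.53 against 11.49 and 11.43 and lower on all 5 probe sets. Of 7 laminins 6 lay above 0, with a median of 0.50, and 3 passed the model as higher, while the median of the 5 left without probe sets of several transcripts was 0.14.

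The lists of growth factor pathways had medians near 0, with large differences in some members. In the TGF-beta, activin and BMP list of 35 genes the median was 0.08. The follistatin-like FSTL1 (1.78), ID2 (1.37), TGIF1 (1.02) and the activin receptor ACVR1B (1.04) were 2-fold higher and INHBA and LTBP1 (-1.99), which stores latent TGF-beta, lower. Of 17 genes of YAP, TAZ and their targets, 4 were 2-fold higher and 2 lower, against 6.09% and 4.40% of all genes. Their median was 0.23, and 6 passed the model as higher and 3 as lower. Among them CCN1 was at 11.81 and 11.34 against 9.28 and 9.09 and AJUBA differed by 2.09. CCN2 lay at 0.44 and WWTR1, which encodes TAZ, at -1.05. Of 20 immediate early genes, 2 were 2-fold higher and 3 lower, with a median of 0.21. The lower ones were NR4A2, NR4A3 (-1.41, floored -0.88) and EGR3 (-1.11), and FOS (-0.18), JUN (0.49) and MYC (0.20) stayed within 2-fold. In the Wnt list of 23 genes FZD5 (-1.19) and DKK1 (-1.07) were 2-fold lower and DKK3 (1.12) higher, with a median of -0.15. In the Notch list of 15 genes DLL1 (1.19) was 2-fold higher and NOTCH3 (-1.18) and LFNG (-1.36) lower, with a median of 0.13.

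Of 15 BCL2 family genes, the survival proteins BCL2 (1.14) and BCL2L1 (1.06) and the death-promoting PMAIP1 (1.25) were 2-fold higher and none was lower. BCL2 was at 9.89 and 10.01 against 8.76 and 8.46. Of 20 p53 targets, SESN2, GDF15 and PMAIP1 were 2-fold higher and TP53I3 (-1.45) and SESN1 (-1.15) lower, with a median of 0.17, and SESN2 and GDF15 belong to the ATF4 list as well. Of the genes of glycolysis and hypoxia, PFKFB4 (-2.12) and EGLN3 (-2.31) were 2-fold lower and BNIP3L (1.19) higher, while VEGFA lay at 0.47 and LDHA at -0.30. Of 23 lysosome and autophagy genes, 11 lay above and 12 below 0, with a median of -0.02. In this list 3 were 2-fold higher, ULK1 (1.17), WIPI1 (1.31) and GABARAPL1 (1.08), and 2 were lower.

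The basic machinery of the cell differed little. The 29 cytosolic ribosomal proteins had a median of 0.07 and a range from -0.033 (RPL35) to 0.52 (RPL12), and 8 passed the model as higher. The 27 proteins of the mitochondrial ribosome had a median of -0.23 with 21 below 0, and 4 passed as lower. The 33 nuclear genes of the respiratory chain had a median of -0.11. None of these genes reached 2-fold, and none of 12 reference genes did, with a median of -0.04.

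Retinoid genes followed no single direction. Of 13 at level, PLAAT4 (2.37), induced by retinoids, was 2-fold higher and DHRS9 (-1.38), which makes retinal, lower. The receptors RARA, RARB and RARG lay at 0.61, -0.81 and -0.63. The median of the 13 was -0.42.

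Markers of other cell types were mostly at background. Of 19 immune markers with a probe set, 5 reached a level of 6 in the ALDH-positive and 2 in the ALDH-negative control array, and their summed linear levels were 3138 and 1281, of which LAPTM5 alone gave the greater part. LAPTM5 was at 11.13 against 9.36, CD74, the invariant chain of MHC class II, at 7.95 against 6.86 and HLA-DRA at 6.02 against 4.97 (1.06, floored 0.025). PTPRC, the pan-leukocyte marker, was under 6 in both arrays, as were CD3D, CD14 and MS4A1. Of 10 endothelial markers, KDR reached the level in ALDH-positive and PECAM1 in ALDH-negative cells, and CDH5, VWF and TEK in neither. In RNA of sorted cells a smaller share of cells and less RNA per cell cannot be told apart.

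Long noncoding RNAs were counted apart from coding genes. Of 622 lncRNA genes, 99 (15.9%) were 2-fold higher and 26 (4.18%) lower, against 5.48% and 4.46% of 11206 protein-coding genes. Calls were more frequent at low levels. The shares higher were 15.5% of 355 lncRNA and 10.6% of 2227 coding genes at a mean log2 level of 6 to 8, 15.2% of 145 and 6.46% of 3253 at 8 to 10, and 8.33% of 60 and 1.99% of 5472 at 10 or more. Of the 99 genes, 82 were also 2-fold higher in the DOX pair, beside 579 of all 734 genes called higher. The shares are a description with no test, since genes are not replicates.

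In 9 places 3 or more genes that are neighbours among those compared were called in the same direction. How many such runs the share of calls alone would give was not tested, some runs are gene families, and those named here were chosen after their values were seen. On chromosome 12 INHBE, GLI1 (2.45), a Hedgehog factor, and DDIT3 are neighbours and were all higher, as were the complement genes C1S (2.14), C1R (1.40) and C1RL (1.41). On chromosome 11 HBB (1.21, floored 0.98), HBE1 (1.44) and the olfactory receptor genes OR51E2 (1.77, floored 0.41) and OR51B4 (1.13, floored 0.069) were higher. HBE1, embryonic globin, was at 11.03 against 9.59 on its brighter probe set, and its other one lay on the other side. SLC6A15, RASSF9 (-2.44, floored -0.50) and NTS (-2.23, floored -0.48), which encodes neurotensin, were lower together on chromosome 12. Median differences of whole chromosomes lay between -0.05 (chromosome 9) and 0.07 (chromosome 18).

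**Figure D5:**
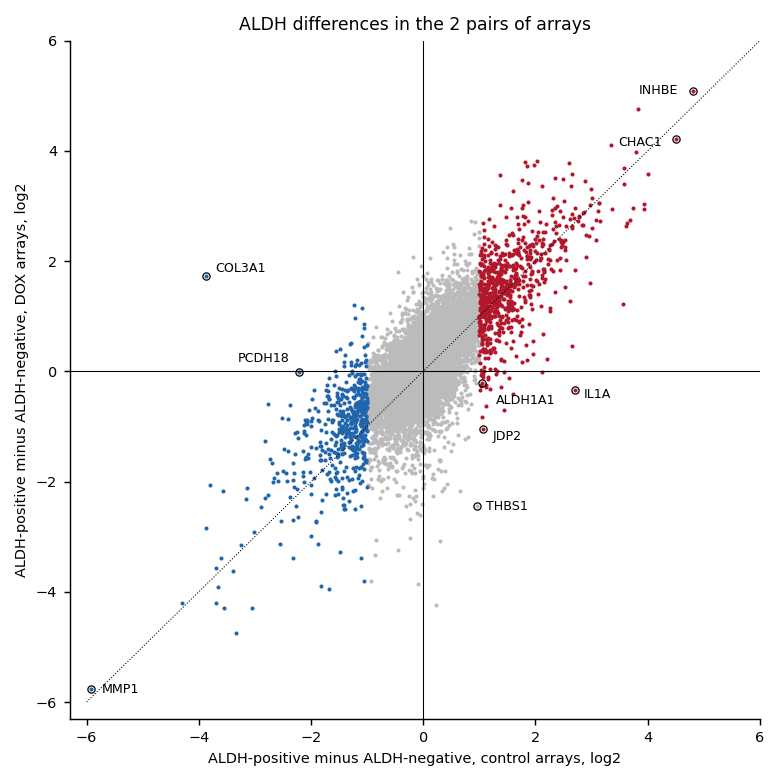
Difference between ALDH-positive and ALDH-negative cells in the control arrays (x axis) and the DOX arrays (y axis), both log2, for 12052 genes; red and blue points were 2-fold higher or lower in the control pair, and the dotted line marks equality. INHBE, CHAC1 and MMP1 lie near that line, while COL3A1, JDP2 and IL1A change sign between the pairs.

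The sizes of the differences carried over unevenly to the DOX pair. Of the 42 genes with an 8-fold difference in the control pair, 41 had the same sign in the DOX pair. The ATF4 list had medians of 2.14 and 1.72 in the control and DOX pairs, origin factors -0.98 and -0.83, cholesterol synthesis -0.86 and -0.80, and the interferon list 0.35 and 0.59. The median of the collagens was 0.0032 in the control and 0.53 in the DOX pair, and that of cytokines 0.015 and -0.43. PCDH18, a protocadherin picked after its values were seen, was at -2.22 and -0.018, and THBS1, thrombospondin, at 0.97 and -2.44. The differences between pairs have no test, since each cell of the design held 1 array.

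At the edge of the level rule, SP6 reached 6.0009 and PCDHGA3 6.0025 in 1 array and entered the comparison, while POM121L12 and SLC34A3 reached 5.9997 and did not.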

How the data were processed

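Total RNA of 4 samples was hybridised to Affymetrix arrays, 1 array a group. The deposited values are log2 levels per probe set, made by the authors with RMA per the submitters' processing notes, which name no version. RMA makes the arrays' distributions alike, so that a shift of all genes could not be seen. Of 54675 probe sets, 41097 carry 1 gene in GEO's platform annotation of 2016, 1801 several and 11777 none, and only the first kind was used, without the 62 control probe sets. Symbols were updated through RefSeq. Each gene is represented by its probe set with the highest mean level. Probe sets whose design name marks several transcripts (suffixes s and x) were kept, with their removal as an alternative.

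The level rule of 6 and the 2-fold call, a log2 difference of 1, are descriptions. The additive limma model had terms for ALDH fraction and DOX and a trended prior. Named genes were the 30 furthest each way whose probe sets at level lie on the same side, list members, genes at the level's edge and genes whose pairs differ 2-fold in opposite directions. Members and the 58 lists were chosen with earlier results of these data known. Other levels, folds, centring, loess, floors, probe set means and eBayes settings were tried. The number of arrays limits the precision. Tools were Python 3.11.15, pandas 2.3.3, R 4.3.3 and limma 3.58.1.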

Additional observations from a re-analysis of the deposited data

Results flagged for a closer look

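In 4 genes the fractions differed by 2-fold or more in opposite directions in the control and DOX pairs. The difference between the pairs was not tested, since each group held 1 array. COL3A1, a fibrillar collagen, differed by -3.87 in control and by 1.73 in DOX arrays, a gap of 5.60, and its 3 probe sets at level can bind several transcripts. FTX, a noncoding RNA, lay at -1.23 and 1.20, a gap of 2.43. ATXN7L3-AS1, an antisense RNA, lay at -1.09 and 1.14, a gap of 2.23. JDP2, a factor that binds AP-1 sites, lay at 1.08 and -1.05, a gap of -2.13.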

How the results depend on the processing

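No paired analysis was possible because groups of 1 array share no replicate numbers, although the additive model compares the fractions within each treatment. With 1.5-fold in place of 2-fold, 1664 genes were higher and 1478 lower in the control pair. The additive limma model called 998 and 529 genes without the trend and 767 and 410 with no level filter. Without the ALDH-positive DOX array and with the DOX term dropped, an alternative added after seeing the data, it called 2909 and 3064. Under the other settings of the control pair 541 to 781 genes were higher and 415 to 564 lower. IDI1 turned to 0.21 with probe sets for a single transcript only. The ATF4 list median was 1.80 with probe set means and 1.56 without shared probe sets, and that of fatty acid synthesis turned to 0.07. Median centring and loess left all 253 named genes and all 56 list medians within the tolerance of 0.216, the median gap between a gene's 2 brightest probe sets, although 4 and 7 of those genes moved to within 2-fold. Setting levels under 6 to 6 moved 51 of the 253 genes beyond that tolerance and 18 to within 2-fold. Means over probe sets moved 97 and kept 138, with 38 within 2-fold, and leaving out shared probe sets moved 16 and kept 179, with 5 within 2-fold.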

Other observations

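Some gene groups beyond the pathways above held members with large differences. Of 14 HOX genes at level, HOXD8 (1.52), HOXB9 (1.67) and HOXD10 (1.38) were 2-fold higher and none was lower, but with levels under 6 set to 6 HOXB9 was at 0.97 and HOXD10 at 0.12. Of 18 S100 proteins and annexins, ANXA3 (3.94) and S100P (1.71) were 2-fold higher and S100A4 (-1.67) and S100A3 (-1.09) lower. Of vascular factors besides KDR, ANGPT1 (-1.45, and -0.52 with levels under 6 set to 6) and ANGPTL4 (-1.22) were lower. In the lysosome and autophagy list, the 2 genes that were 2-fold lower were ATP6V0D1 (-1.45), a proton pump subunit, and GLA (-1.12), a galactosidase.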
